A study of Rattus norvegicus with 31 samples.

Results

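Perivascular adipose tissue (PVAT), the fat around the thoracic aorta, was set against brown adipose tissue (BAT) of rats with the same narrowed aorta. The libraries were chosen by the group codes of their titles: 6 of PVAT from above the ligature of coarcted rats (coarct above) and 5 of BAT from coarcted rats (coarct BAT), 11 of the 31 libraries analysed. All 11 came from male Sprague-Dawley rats on chow with a coarctation, made by tying a silk ligature around the upper aorta and a needle that was then taken out. The labels give an age of 10 to 15 weeks, a time point of 15 weeks and a pressure gradient of about 20 mmHg across the narrowing 4 weeks after surgery, so that coarct above is fat on the high-pressure side. Male Sprague-Dawley rats of the same labelled age with a loose ligature gave a further pair of groups, 5 libraries of PVAT from above the ligature (sham above) and 4 of BAT (sham BAT). The labels do not name the depot the BAT was taken from, and their extraction protocol speaks of PVAT. No label says that a library is from 1 animal, so p-values measure the spread between these libraries.

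Brown adipocytes burn fatty acids to make heat, through uncoupling protein 1 (UCP1) in the inner mitochondrial membrane, and the fat around the rodent thoracic aorta is rich in such cells. Fat depots arise from different embryonic sources and keep position-related transcription factors in the adult, such as the Zic, Engrailed and Hox proteins. The thoracic aorta lies in the chest near the heart and great veins, and the chest wall and organs are lined by mesothelium, a sheet of flat epithelial cells.

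Levels are given throughout in CPM, the read count of a gene scaled to the same total in every library. The libraries held 18256260 to 23874564 counted reads in coarct above and 16232414 to 21648074 in coarct BAT. Coarct BAT replicate 29 stood apart on the first principal component (37.3% of the variance), at -0.794 against -0.185 to 0.389 for the other 10 libraries. A mitochondrial entry split both groups, with 3 coarct above libraries at 2572 to 3761 CPM and 3 at 46.5 to 52.7 CPM, against 3 coarct BAT libraries at 3153 to 4699 CPM and 2 at 70.9 to 71.3 CPM. The summed level of 15 heart muscle genes was 4.15 CPM in coarct above replicate 30 and 552 to 3411 CPM in the other 5 coarct above libraries, against 1.23 to 27.6 CPM in coarct BAT.

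Few genes passed the threshold between coarct above and coarct BAT, which does not show that few differed. Of 13682 genes tested with edgeR's quasi-likelihood test, 92 (0.672%) differed, of which 65 were higher in coarct above (0.475%) and 27 lower (0.197%), at a Benjamini-Hochberg adjusted p below 0.05, and these are the genes said below to be higher, lower or called. At an unadjusted p below 0.05 there were 1763 (12.9%). The genes that fell held 8 members of the developmental and Hox lists. Those that rose held 8 mesothelial and 9 heart muscle list members, and 48 that were on neither of those lists. The 6 coarct above values lay all above the 5 coarct BAT values for 48 of the 65 higher genes. Over all 13682 genes tested, 215 (1.57%) lay that way, called or not. They lay all below the coarct BAT values for 23 of the 27 lower genes, and for 46 (0.336%) of all genes tested. The other 17 higher genes overlapped through 1 coarct above library each, replicate 30 for 15 and replicate 29 for 2. Genes close to absent from 1 tissue, listed or not, entered the test through the other. For such genes a lack of overlap is no separate support. Within the libraries on the high side of the mitochondrial split 7 genes were higher and 4 lower, and within those on the low side 18 were higher and 7 lower. Leaving out coarct BAT replicate 27 raised the counts to 139 higher and 49 lower, and leaving out coarct above replicate 25 gave 33 higher and 16 lower. With coarct above replicates 19, 23 or 27 left out, 34, 36 and 37 genes were higher, and with coarct BAT replicates 23 or 29 left out, 39 and 43 were. Without coarct above replicate 23, 17 genes were lower. In all 11 such fits, 26 of the 65 higher and 16 of the 27 lower genes were called, where 47 of the 65 and all 27 could be tested each time. Both tissues hold libraries with the title numbers 19, 23, 27, 29 and 30, which the test did not treat as pairs. With the number as a block, 52 genes were higher and 20 lower, and 55 of the 92 calls were kept.

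Zic genes, which are position-related transcription factors, were close to absent from the coarct above libraries, and Zic1 had the lowest p of all genes tested. Zic1, a zinc finger factor known as a marker of classical brown fat in the mouse (ENSRNOG00000014644, chromosome 8, start 98734295, minus strand; the build is not given in the sources used here), was at 0 CPM in 5 of 6 coarct above libraries and 0.0994 CPM in replicate 29, against 5.45, 6.56, 5.67, 4.39 and 5.77 CPM in coarct BAT. That is 2 reads against 549, a ratio of 0.00287 (95% exact interval for counting error 0.000347 to 0.0104; adjusted p = 1.11e-05). Its neighbour on the other strand, Zic4 (ENSRNOG00000014871, start 98745310), had no read in coarct above, against 2.63, 2.32, 3.02, 2.12 and 2.38 CPM in coarct BAT. With 3 reads over the group taken as the floor for a count of 0, Zic4 was at least 103-fold lower in coarct above (adjusted p = 0.000134). No library of one tissue reached the other for either gene. In whole tissue, fewer cells of a type and less RNA per cell cannot be told apart, here and below.

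Other transcription factor genes were lower as well, at low levels. Irx5, an Iroquois homeobox factor, had a lowest, median and highest value of 0, 0.0738 and 0.209 CPM in coarct above, against 3.14, 2.37, 1.48, 1.04 and 2.68 CPM in coarct BAT (log2 fold change -4.54 ± 0.58 (SE), adjusted p = 0.00194). Dmrt2, a factor of somite patterning, had 0, 0.241 and 0.547 CPM in coarct above, against 4.57, 5.84, 3.20, 2.47 and 4.81 CPM in coarct BAT (-4.25 ± 0.56, adjusted p = 0.00237). Both were lower in every coarct above library than in any coarct BAT library. Here and below, a bracketed value after the levels is a log2 fold change, coarct above over coarct BAT. En1, an Engrailed homeobox factor of the dermomyotome, averaged 0.619 ± 0.292 CPM in coarct above (SD, n = 6), against 2.59 ± 0.873 CPM in coarct BAT (SD, n = 5), a log2 fold change of -2.23. Tbx15, a T-box factor of dorsal mesoderm, had 0.234, 0.592 and 1.49 CPM in coarct above, against 5.45, 4.73, 3.08, 1.04 and 3.19 CPM in coarct BAT (-2.46, adjusted p = 0.0279). For Tbx15 coarct above replicate 29 lay over coarct BAT replicate 29, and the call was lost without any of coarct above 19, 23, 25, 27 or 30 or coarct BAT 19, 23 or 30.

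Of 34 tested developmental factors on the list used here, 5 were lower (Zic4, Zic1, Irx5, Tbx15, En1) and 4 were higher (Wt1, Gata4, Pax9, Foxc1). The list median log2 fold change was -0.12 (0.05 on the deposited log2(FPKM + 1) scale), against -0.03 over all genes tested. Of the 34, 6 were under 1 CPM in every coarct BAT library and so entered the test through PVAT. Zic1, Zic4 and Irx5, close to absent from coarct above, entered through coarct BAT. Dmrt2, outside the list, and En1 were under 1 CPM in every coarct above library and entered in the same way. Gata4, a factor of heart and splanchnic mesoderm, had 0.545, 2.11 and 5.96 CPM in coarct above, against 0.139, 0, 0, 0.0494 and 0 CPM in coarct BAT (5.46, adjusted p = 0.00614). Foxc1, a forkhead factor of mesenchyme and vessels, had 4.37, 5.16 and 7.49 CPM in coarct above, against 1.94, 1.93, 1.79, 1.88 and 2.38 CPM in coarct BAT (1.30 ± 0.18, adjusted p = 0.00396). Foxp2, a forkhead repressor outside that list, had 6.78, 9.44 and 13.2 CPM in coarct above, against 0.739, 1.06, 1.79, 0.691 and 1.82 CPM in coarct BAT (2.83 ± 0.27, adjusted p = 0.000168). Gata4, Foxc1 and Foxp2 did not overlap between the tissues. Heart muscle and mesothelial genes were also higher in coarct above, and their part in these values was not tested. Pax9, a paired-box factor, was at 0.762 ± 0.393 CPM in coarct above and 0.0902 ± 0.0616 CPM in coarct BAT (adjusted p = 0.042), and lost its call without any coarct BAT library.

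**Figure D1:**
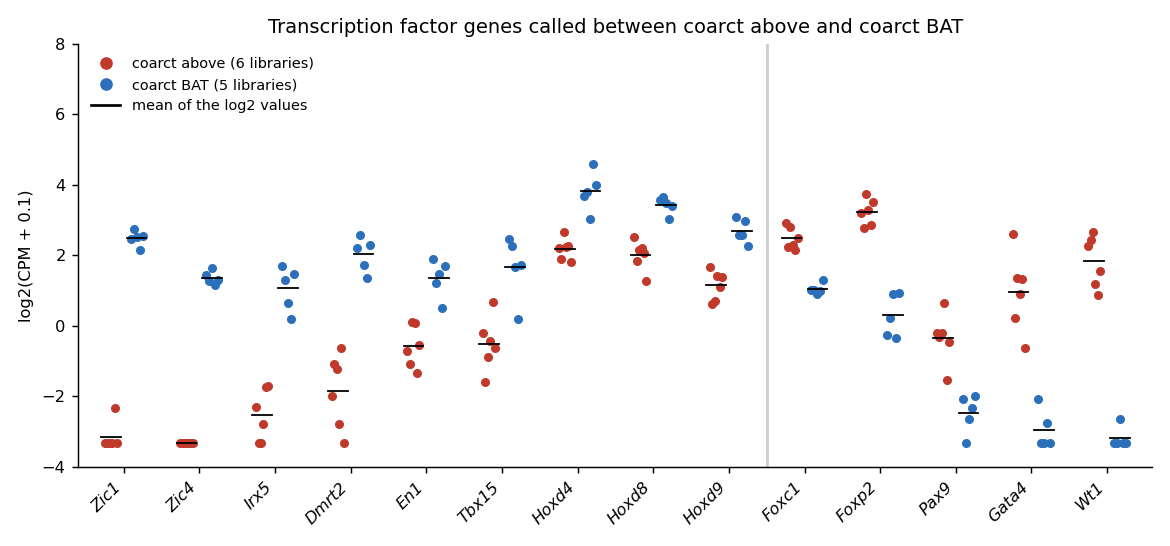
Levels of 14 transcription factor genes, each point a library, on a log2(CPM + 0.1) axis, with coarct above (6 libraries) left of coarct BAT (5) for each gene and a bar at the mean of the log2 values. The 9 genes left of the grey line were lower in coarct above and the 5 right of it higher; Zic1 and Zic4 sit at the floor of the axis in coarct above apart from 1 library of Zic1 at 0.0994 CPM.

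The Hox genes, homeobox factors that set position along the body axis, were lower in the HoxD cluster. Of its 4 tested genes 3 were lower, with a median log2 fold change of -1.70, and Hoxd3 was at -1.28 (adjusted p = 0.213). Hoxd8 (ENSRNOG00000042480, chromosome 3, start 61627383) had 2.30, 4.23 and 5.65 CPM in coarct above, against 11.8, 12.6, 11, 8.10 and 10.5 CPM in coarct BAT (-1.59 ± 0.18, adjusted p = 0.000620). Hoxd4 averaged 4.52 ± 0.994 CPM in coarct above and 15.0 ± 5.87 CPM in coarct BAT (-1.98, adjusted p = 0.00594), and Hoxd9 2.19 ± 0.631 CPM in coarct above and 6.55 ± 1.5 CPM in coarct BAT (-1.80, adjusted p = 0.006). All 3 were lower in every coarct above library than in any coarct BAT library. None of the 6 tested HoxB genes (median 0.59, range -0.14 to 0.75) or 4 tested HoxC genes (median -0.39) was called. Reads shared by overlapping transcripts within a cluster could not be assigned here, since the strand setting of the counting is not given in the sources used here.

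Promoter sequences of Zic4 and Hoxd8 are shown as members of the 2 groups of factors that fell, the Zic pair and the HoxD cluster. The 250 bases before the first RefSeq start (GRCr8, plus strand), with no letters marked, are at chr8:100795852-100796101 for Zic4 (8 CG pairs) and chr3:80014973-80015222 for Hoxd8 (38 CG pairs). The median was 16 CG pairs in the 6 promoters found for the 8 lower developmental and Hox list genes, against 5 over 33469 promoters. The promoter of Wt1, a developmental list gene that was higher, had 27 CG pairs. A high number is therefore not shown to be particular to the genes that fell.
Zic4: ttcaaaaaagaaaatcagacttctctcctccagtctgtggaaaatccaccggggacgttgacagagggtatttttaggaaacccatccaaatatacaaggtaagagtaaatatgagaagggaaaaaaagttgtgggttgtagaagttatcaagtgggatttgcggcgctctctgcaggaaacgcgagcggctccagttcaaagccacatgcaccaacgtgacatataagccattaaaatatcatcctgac
Hoxd8: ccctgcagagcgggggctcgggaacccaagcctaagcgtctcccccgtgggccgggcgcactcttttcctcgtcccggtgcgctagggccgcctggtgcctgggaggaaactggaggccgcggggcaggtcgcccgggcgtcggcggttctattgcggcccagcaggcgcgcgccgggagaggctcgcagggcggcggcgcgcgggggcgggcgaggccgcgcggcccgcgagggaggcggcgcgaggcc

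The lower genes outside those lists were a receptor, secreted proteins and others. Il1r2, the decoy receptor of interleukin 1, had 0.234, 0.253 and 0.603 CPM in coarct above, against 2.54, 3.62, 2.34, 6.42 and 3.44 CPM in coarct BAT (-3.68 ± 0.40, adjusted p = 0.000620). Igfbp3, a carrier of insulin-like growth factors, had 47.8, 64.8 and 106 CPM in coarct above, against 175, 154, 155, 93.0 and 180 CPM in coarct BAT (-1.31 ± 0.16, adjusted p = 0.00149). Igfbp3 overlapped through coarct above replicate 19, its highest library in that tissue, and coarct BAT replicate 29. Car6, a secreted carbonic anhydrase, averaged 5.40 ± 0.568 CPM in coarct above and 11.9 ± 1.96 CPM in coarct BAT (-1.33), and Mmp27, a matrix metalloproteinase, 0.423 ± 0.292 CPM in coarct above and 3.19 ± 0.810 CPM in coarct BAT (-3.17). Neither overlapped between the tissues. Il1r2 and Mmp27 were under 1 CPM in every coarct above library and so entered the test through coarct BAT. With the title number as a block Mmp27 was not called. Nrn1, a neurite growth protein, averaged 1.59 ± 1.06 CPM in coarct above and 7.84 ± 3.14 CPM in coarct BAT (-2.45, adjusted p = 0.0146). Cd40, a receptor of immune cells that has also been used as a beige fat marker in mice, had 4.58, 5.56 and 6.83 CPM in coarct above, against 7.76, 16.3, 8.19, 9.82 and 13.9 CPM in coarct BAT (-1.15, adjusted p = 0.0145). The call on Cd40 was lost without coarct above replicate 25 or 27, and that on Nrn1 without coarct above 23 or 25 or coarct BAT 30. Mycbpap, a Myc-binding protein partner, was lower too, at 3.34 ± 1.62 CPM in coarct above and 10.3 ± 2.79 CPM in coarct BAT (-1.86). limma on log2(FPKM + 1) did not call Igfbp3, Cd40 or Mycbpap.

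Mesothelial genes were higher in coarct above. Of 13 tested list members 8 rose, 10 did not overlap, none fell and the median log2 fold change was 2.54; 6 of the 13 were under 1 CPM in every coarct BAT library and so entered the test through PVAT. Msln, the surface protein mesothelin (ENSRNOG00000019445, chromosome 10, start 15119663), had 12.0, 29.9 and 64.4 CPM in coarct above, against 0, 0.145, 0, 0.198 and 0.203 CPM in coarct BAT (7.90 ± 0.64, adjusted p = 7.27e-05). Wt1, a zinc finger factor of mesothelium, had 1.74, 3.77 and 6.19 CPM in coarct above and 1 read in all of coarct BAT, in replicate 27, a ratio of 469 to 1 reads corrected for depth of 369 (66.0 to 14622 by counting error; adjusted p = 7.4e-05). Each of the 6 coarct above libraries was over every coarct BAT library for both genes. Upk3b, a uroplakin of mesothelial surfaces, had 3.39, 7.41 and 13.4 CPM in coarct above, against 0, 0.145, 0, 0.0494 and 0 CPM in coarct BAT (7.20, adjusted p = 9.54e-05). Upk1b (5.52), Krt19, an epithelial keratin (5.04), Rspo1, a secreted Wnt agonist (2.54), and Gpm6a, a membrane glycoprotein (2.06), were higher as well, and so was Lrrn4, a leucine-rich repeat protein, with 1258 reads in coarct above and 3 in coarct BAT (ratio 330, 113 to 1604). With the title number as a block Gpm6a was not called. Among uncalled members Cldn15 was at 1.47 (adjusted p = 0.0667) and Slpi at -0.75. Within the high and low sides of the mitochondrial split 3 and 1 list members were called, with medians of 2.44 and 2.57.

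Higher genes on neither the mesothelial nor the cardiac list included Wfdc21, Cgn, Dsg2 and Myrf. Wfdc21, a small secreted whey acidic protein, had 5.25, 7.91 and 23.7 CPM in coarct above and at most 0.148 CPM in coarct BAT (7.34, adjusted p = 0.000206). Cgn, the tight junction protein cingulin, had 1.73, 5.21 and 9.59 CPM in coarct above and at most 0.123 CPM in coarct BAT (6.58, adjusted p = 0.000217). Dsg2, a desmosomal cadherin of heart and epithelia, had 1.09, 3.37 and 7.79 CPM in coarct above and no read in coarct BAT, at least 121-fold higher at a floor of 3 reads over the group (adjusted p = 0.00303). Myrf, a membrane-bound transcription factor, averaged 5.63 ± 2.52 CPM in coarct above and 0.835 ± 0.226 CPM in coarct BAT (2.56). Wfdc21, Cgn and Dsg2 were under 1 CPM in every coarct BAT library and so entered the test through PVAT. limma on log2(FPKM + 1) did not call Cgn or Myrf. The summed mesothelial list was 65.2, 115 and 221 CPM in coarct above (lowest, median, highest), against 21.3, 28.3, 20.0, 24 and 29.6 CPM in coarct BAT, and its part in these genes was not tested.

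Heart muscle genes were higher in 5 of 6 coarct above libraries. Of 12 tested cardiac list members 9 rose and none fell, and the median log2 fold change was 8.96, or 8.91 with Sln, which had no read in coarct BAT, at its bound of 3 reads. Of the 12, 9 were under 1 CPM in every coarct BAT library, so they entered the test through PVAT. Tnnt2, cardiac troponin T (ENSRNOG00000033734, chromosome 13), had 0.168, 55.0 and 226 CPM in coarct above and 2 reads in all of coarct BAT, in replicate 29, a depth-corrected ratio of 3374 (934 to 27864 by counting error; adjusted p = 0.00594). Myh6, a cardiac myosin heavy chain, had 0.126, 227 and 1255 CPM in coarct above, against 1.52, 0.338, 0.801, 0 and 1.42 CPM in coarct BAT (8.61, adjusted p = 0.0148). Myl7, the atrial myosin light chain, had 0.0419, 101 and 426 CPM in coarct above, against 0.0924, 0.145, 0.123, 0 and 0.354 CPM in coarct BAT (9.73, adjusted p = 0.00682). In each of these genes replicate 19 was the highest coarct above library and replicate 30 the lowest, within or below the coarct BAT values for Myh6 and Myl7. Without replicate 30, the log2 fold change of Myh6 was 8.90 (adjusted p = 0.000204) and that of Myl7 10.01 (adjusted p = 2.2e-05), and 10 of 12 list members were called. Without any other coarct above library 6 of the 12 could be tested and 4 were called, and 5, 6 and 7 were called without coarct BAT replicates 29, 30 and 23. The calls lost were Tnnt2 (adjusted p = 0.0935 without coarct BAT 29), Myl4 (coarct BAT 29 or 30), and Myh6 and Actc1 (coarct BAT 23, 29 or 30). Within the high side of the mitochondrial split, which holds replicate 30, 0 of 6 testable list members were called (median 7.17), and within the low side 10 of 12 were (median 8.22). limma on the deposited log2(FPKM + 1) values called 0 of 13 members (median 4.47), and with a pseudocount of 0.1 it called 1 of 13.

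Other genes of the heart muscle followed. Tnni3, cardiac troponin I, had 0.0419, 42.3 and 150 CPM in coarct above and 3 reads in coarct BAT (ratio 1646, 563 to 7982). Mybpc3, cardiac myosin-binding protein C (9.34), Actc1, cardiac actin (9.31), Ryr2, the cardiac calcium release channel (7.71), Ankrd1, a stretch-related nuclear and sarcomeric protein (6.97), and Myl4, an atrial light chain (6.72), were higher in coarct above. Tnnt2 was the 1 called gene of the 9 whose groups did not overlap, and the other 8 overlapped through replicate 30 of coarct above. Sln, the sarcolipin of atrium and muscle, had 0, 13.3 and 51.5 CPM in coarct above and no read in coarct BAT, with an adjusted p of 0.059. Myl3, a ventricular and slow muscle light chain, was at -2.41 (adjusted p = 0.373) and Csrp3, a muscle LIM protein, at 4.16 (adjusted p = 0.225). Outside the list Mylk3, the cardiac myosin light chain kinase (5.82, adjusted p = 0.0143), was higher in coarct above and also lowest in replicate 30 among the coarct above libraries. With 1 library left out, Mylk3 was called in 3 of the 6 fits in which it could be tested. Reads of near-identical muscle paralogs such as Myh6 and Myh7 or the actins may have been split or dropped by the counting, whose settings no source used here states.

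**Figure D2:**
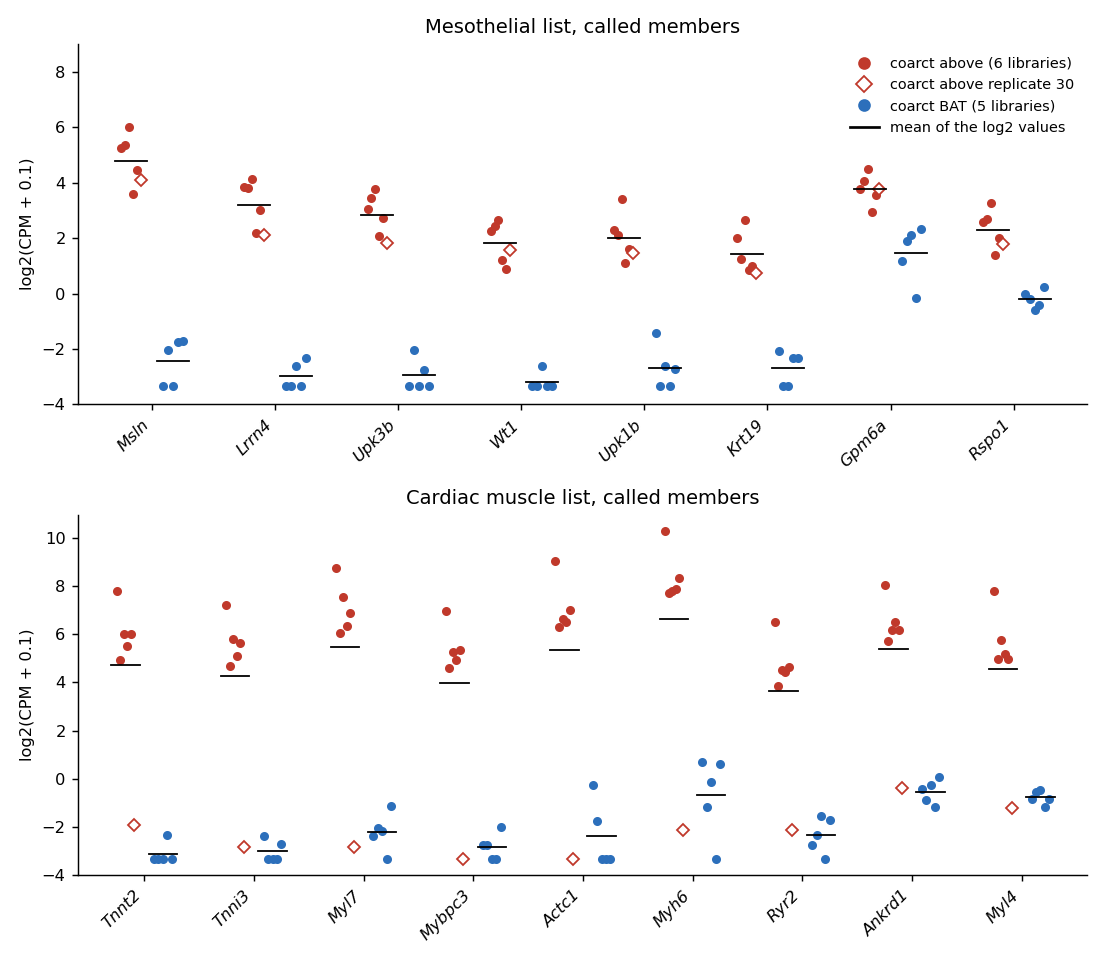
Called members of the mesothelial list (upper panel) and the cardiac muscle list (lower panel), each point a library on a log2(CPM + 0.1) axis, coarct above left of coarct BAT, with open diamonds for coarct above replicate 30 and bars at the mean of the log2 values. Replicate 30 lies with the other coarct above libraries for the mesothelial genes and with or near coarct BAT for the cardiac genes, as for Myl7 at 0.0419 CPM.

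Promoters of the troponins are printed because these genes had the largest read ratios given here. The motif that GATA factors read, spelled AGATAA, was searched on both strands in the 250 bases before each RefSeq start (GRCr8), without regard to overlap with other motifs. It was present in 2 of 9 promoters of the called cardiac genes (8 of 9 genes matched; 22.2%), against 10.3% of 33469 promoters, and in 0 of 6 mesothelial ones. The 2 promoters with the motif are the 2 printed here, and the second Tnnt2 promoter, chr13:49823809-49824058, had none. Tnnt2 is given at its first start, chr13:49818873-49819122, and Tnni3 at chr1:78342321-78342570, both on the plus strand. The motif as read on the other strand is in capitals.
Tnnt2: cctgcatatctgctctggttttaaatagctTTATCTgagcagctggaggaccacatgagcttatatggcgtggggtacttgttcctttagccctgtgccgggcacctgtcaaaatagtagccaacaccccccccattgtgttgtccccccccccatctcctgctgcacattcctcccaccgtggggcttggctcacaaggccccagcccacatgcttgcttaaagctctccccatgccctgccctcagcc
Tnni3: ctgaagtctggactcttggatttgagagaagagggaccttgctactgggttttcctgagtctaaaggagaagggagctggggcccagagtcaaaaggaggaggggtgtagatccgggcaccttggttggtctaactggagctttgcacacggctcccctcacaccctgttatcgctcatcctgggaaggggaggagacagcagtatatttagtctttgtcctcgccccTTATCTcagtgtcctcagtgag

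The fibroblast and matrix enzyme lists gave 1 call each and the fibrillar collagen list none. Pi16, a peptidase inhibitor that marks a fibroblast progenitor of the adventitia and fat, had 122, 247 and 406 CPM in coarct above, against 33.3, 44.7, 41.7, 84.3 and 95.2 CPM in coarct BAT (1.87 ± 0.34, adjusted p = 0.0207). All 6 coarct above libraries were over all 5 coarct BAT libraries, and the call was lost without coarct above 19, 23 or 25 or coarct BAT 19 or 23. It was the 1 call among 17 tested fibroblast and progenitor genes (median 0.19), where Pdgfra, a receptor of mesenchymal progenitors, was at 0.34 (adjusted p = 0.605). None of 31 fibrillar collagen and matrix genes was called (median -0.01). Col1a1, the main chain of type I collagen, averaged 735 ± 414 CPM in coarct above and 1644 ± 845 CPM in coarct BAT (-1.31, adjusted p = 0.22). Plod2, the lysyl hydroxylase of collagen cross-links, was the 1 call of 24 matrix enzymes, with 4.87, 9.32 and 16.4 CPM in coarct above, against 2.22, 1.11, 2.28, 0.642 and 2.33 CPM in coarct BAT (2.31, adjusted p = 0.00575), and its groups did not overlap.

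Among 21 tested Wnt pathway genes 13 had a positive and 8 a negative log2 fold change (median 0.45), the lowest being Sfrp5 at -1.30. The tissues did not overlap for 3 that lay higher and 2 that lay lower in coarct above, against 1.57% and 0.336% of all genes tested. DESeq2's Wald test called 6 of 24 higher and 2 lower. With edgeR 3 were higher in coarct above and none was lower. Beside Rspo1, which the mesothelial list also holds, these were Dkk3, a secreted Dickkopf protein, with 3.43, 9.11 and 22.5 CPM in coarct above, against 1.89, 1.98, 1.79, 1.83 and 3.19 CPM in coarct BAT (2.11, adjusted p = 0.0145), and Wnt2b, a ligand, at 3.13 ± 1.72 CPM in coarct above and 0.242 ± 0.286 CPM in coarct BAT (3.5, adjusted p = 0.0336). Neither overlapped between the tissues. Wnt2b, at a mean of 0.242 CPM in coarct BAT, entered the test through PVAT. Dkk3 lost its call without coarct BAT 19 or 23, and Wnt2b without coarct above 19, 23, 25 or 27 or coarct BAT 19, 23 or 29. limma on log2(FPKM + 1) called neither gene. Higher genes outside the lists included Aldh1a3, Gpc3 and Slit2. Aldh1a3, a retinoic acid synthesis enzyme, averaged 19.5 ± 6.31 CPM in coarct above and 5.10 ± 1.42 CPM in coarct BAT (1.69, adjusted p = 0.00594). Gpc3, the glypican 3 proteoglycan, averaged 20.9 ± 7.14 CPM in coarct above, against 4.62, 4.05, 2.16, 3.21 and 7.24 CPM in coarct BAT (2.10, adjusted p = 0.00237), and Slit2, a guidance ligand, was higher by a log2 fold change of 2.39. With the title number as a block Aldh1a3 and Slit2 were not called, and Gpc3 was. Mesothelial and heart muscle list genes were higher in coarct above as well, and their part in these genes was not tested.

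Lymphatic and Schwann cell genes gave a few calls. Prox1, the factor that sets lymphatic endothelial identity, had 0.497, 1.68 and 3.26 CPM in coarct above, against 0.231, 0.0965, 0.123, 0.0987 and 0.456 CPM in coarct BAT (2.95, adjusted p = 0.0225), and Reln, the secreted protein reelin, was at 1.71 (adjusted p = 0.0451). They were the 2 calls among 7 tested lymphatic genes (all 7 with a positive log2 fold change, median 0.99). Prox1 was under 1 CPM in every coarct BAT library and so entered the test through PVAT. It did not overlap but lost its call without coarct above 19, 25 or 27 or coarct BAT 19, 23 or 29. Sox10, the factor of Schwann cells, averaged 2.20 ± 0.373 CPM in coarct above and 4.19 ± 1.34 CPM in coarct BAT (-1.12, adjusted p = 0.0472). It was the 1 call of 13 Schwann genes, all 13 of which had a negative value (median -0.47; 10 of 13 on the log2(FPKM + 1) scale), and with 1 library left out it was called in 2 of 11 fits, as was Reln.

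**Figure D3:**
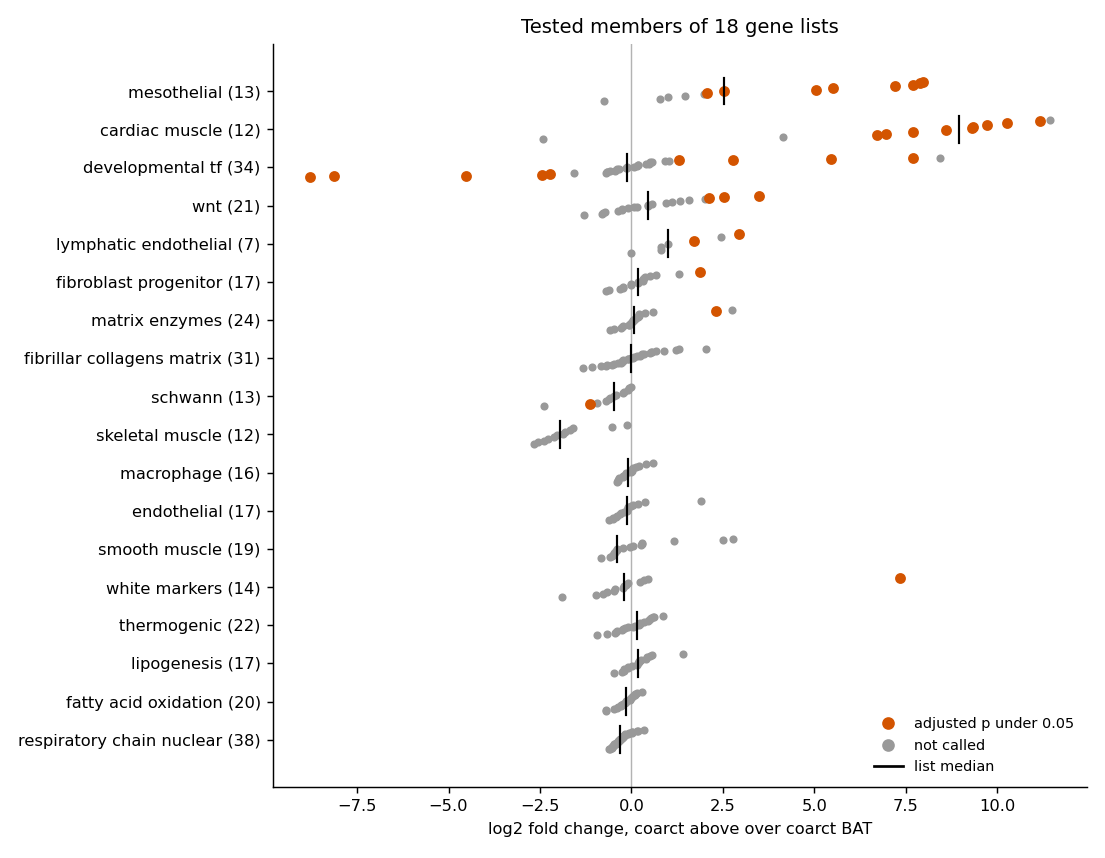
Log2 fold changes (coarct above over coarct BAT) of the tested members of 18 gene lists, each point a gene and each bar a list median, with called genes in orange and the number tested in brackets. The mesothelial median is 2.54 and the cardiac one 8.96, while the medians of the adipocyte lists lie close to 0.

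Adipocyte lists gave at most 1 call each, and the central genes of brown fat were abundant in both tissues. Ucp1 (ENSRNOG00000003580), the heat-producing proton carrier of brown fat, had 1279, 1615 and 2186 CPM in coarct above, against 978, 1637, 1527, 1521 and 830 CPM in coarct BAT (0.11 ± 0.25, adjusted p = 0.860). The groups overlapped in part, with coarct BAT replicates 19 and 30 below every coarct above library and the highest coarct above library over all of coarct BAT. A p that misses the threshold does not show that the tissues were equal. Of 22 thermogenic genes tested none was called (median 0.16). Cidea, a lipid droplet protein of brown fat, averaged 1392 ± 243 CPM in coarct above and 1879 ± 407 CPM in coarct BAT (-0.67, adjusted p = 0.269), and Adrb3, the adrenergic receptor that starts lipolysis, 307 ± 71.4 CPM in coarct above and 352 ± 126 CPM in coarct BAT (-0.43, adjusted p = 0.509). Ebf2, a transcription factor of brown preadipocytes, had 147, 183 and 215 CPM in coarct above, against 130, 123, 141, 56.4 and 129 CPM in coarct BAT (0.50, adjusted p = 0.258). Its groups did not overlap, but the difference missed the threshold. Fold changes carry edgeR's correction for library composition and so can differ from ratios of mean CPM.

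Markers of classical brown fat other than Zic1 lay between -0.35 and 0.48 in log2 fold change, and none of those 7 was called. Cd40 was the 1 call of 10 beige markers and Wfdc21 that of 14 white markers. Lep, the satiety hormone leptin, averaged 236 ± 89.1 CPM in coarct above and 283 ± 107 CPM in coarct BAT (-0.46), and Adipoq, adiponectin, 1557 ± 186 CPM in coarct above and 1637 ± 273 CPM in coarct BAT (-0.30). Sfrp5, a secreted Wnt inhibitor of adipocytes, was at -1.30 (adjusted p = 0.059) and did not overlap. Agt, angiotensinogen, had 69.9, 515 and 794 CPM in coarct above, against 301, 352, 73.6, 958 and 785 CPM in coarct BAT, a difference of -0.14 with overlapping groups, and none of 10 renin-angiotensin genes was called.

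Metabolic lists gave no call, and lipogenesis genes had a wide range of levels within each tissue. The 17 lipogenesis genes summed to 11707, 26057 and 72938 CPM in coarct above (lowest, median, highest), with a range of 12751 to 63292 CPM in coarct BAT. Acaca, acetyl-CoA carboxylase, averaged 711 ± 360 CPM in coarct above and 484 ± 408 CPM in coarct BAT (0.51, adjusted p = 0.653). None of 17 lipogenesis, 19 triglyceride and lipolysis, 20 fatty acid oxidation or 38 nuclear respiratory chain genes was called. In the respiratory chain 32 of 38 genes had a negative log2 fold change (median -0.31), but on the deposited log2(FPKM + 1) scale, which has no correction for library composition, 23 had (median -0.05). Uqcrc1, a core subunit of complex III, was at 1153 ± 41.4 CPM in coarct above and 1339 ± 238 CPM in coarct BAT (-0.43, adjusted p = 0.394). All 13 genes of the mitochondrial genome were negative as well (median -0.28), or 8 of 13 on the FPKM scale (median -0.05), with none called.

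**Figure D4:**
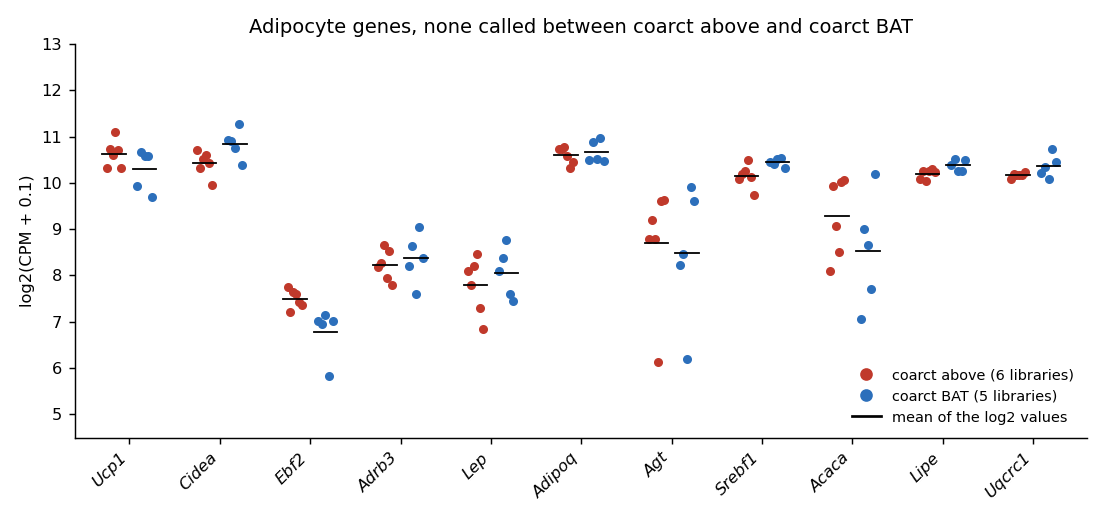
Levels of 11 adipocyte genes that were not called, each point a library on a log2(CPM + 0.1) axis, coarct above (6) left of coarct BAT (5), with bars at the mean of the log2 values. The groups overlap for most genes, while for Ebf2 all coarct above libraries (147 to 215 CPM) are over all coarct BAT libraries (56.4 to 141 CPM).

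No gene was called among 17 endothelial, 19 smooth muscle, 16 macrophage or 13 T cell genes, with edgeR medians of -0.12, -0.40, -0.08 and -0.35. On the FPKM scale the endothelial and macrophage medians were 0.10 and 0.08. Skeletal muscle genes had negative values in all 12 tested (median -1.94, and 10 of 12 negative on the FPKM scale) but none passed the test. In shams 4 of 12 were lower in sham above than in sham BAT (median -3.41). The skeletal muscle list summed to 221, 254 and 2408 CPM in coarct above, with a range of 103 to 7347 CPM in coarct BAT. Its highest sums were in replicate 29 of coarct above and replicate 19 of coarct BAT. Red cell and platelet genes had positive values in all 7 tested with none called (median 0.58, and 0.59 on the FPKM scale; 1.35 in shams). Their list summed to 617, 1235 and 2282 CPM in coarct above, with a range of 441 to 955 CPM in coarct BAT, and its part in the genes higher in coarct above was not tested.

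PVAT from above the ligature was also set against BAT in sham rats, with other libraries than above. Of 13844 genes tested, 99 (0.715%) were called, of which 68 were higher in sham above than in sham BAT (0.491%) and 31 were lower (0.224%). Of the genes called in coarcted rats, 45 higher genes were called in shams, 69.2% of the 65 and 66.2% of the 68, and 11 lower ones, 40.7% of the 27 and 35.5% of the 31. All 63 higher genes that could be tested in shams had the same direction, with a median log2 fold change of 3.58 in shams, and so did 26 of 27 lower genes, with a median of -1.25. Leaving out sham above replicate 20 raised the higher count to 106, and leaving out sham above 24, sham BAT 20 or sham BAT 24 lowered it to 45, 42 and 45. The lower count was 18, 17 and 19 without sham above 22, 24 or 28.

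Zic1, which was at 0 CPM in all sham above libraries, averaged 5.15 CPM in sham BAT (adjusted p = 0.00226). Msln averaged 32.3 CPM in sham above and 0.0660 CPM in sham BAT (8.44, adjusted p = 7.71e-05), and Tnnt2 83.3 CPM in sham above and 0.0223 CPM in sham BAT (adjusted p = 0.00139). Pi16 averaged 429 CPM in sham above and 75.0 CPM in sham BAT (2.40, adjusted p = 0.00226). All 4 were called in both surgeries. In the HoxD cluster Hoxd8 was lower in shams (-1.83, adjusted p = 0.003), while Hoxd4 was at -1.18 (adjusted p = 0.234) and Hoxd9 at -1.25 (adjusted p = 0.323). Prox1, called in coarcted rats, was at 1.11 in shams (adjusted p = 0.796).

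A test of the difference itself, the change in coarcted rats minus that in shams over 14496 genes, called 0 genes with edgeR (0% of those tested; lowest adjusted p 0.51), with 636 genes at an unadjusted p below 0.05. limma on the deposited FPKM called 0 and DESeq2's Wald test called 1, AABR07050545.1 (-2.03, adjusted p = 0.0048). That unnamed gene, picked out after its values were seen, averaged 2.45 ± 0.620 CPM in coarct above and 6.09 ± 1.87 CPM in coarct BAT, and 4.05 ± 0.551 CPM in sham above and 2.57 ± 1.07 CPM in sham BAT. With a library left out, edgeR called 1 gene without sham BAT 22 (Tma7, a translation machinery protein, -4.16, adjusted p = 0.00661) and 1 without sham BAT 26 (AABR07050545.1, -2.35, adjusted p = 0.046). Genes called in coarcted rats alone, such as Prox1 and Hoxd4, are not shown to differ between the surgeries.

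**Figure D5:**
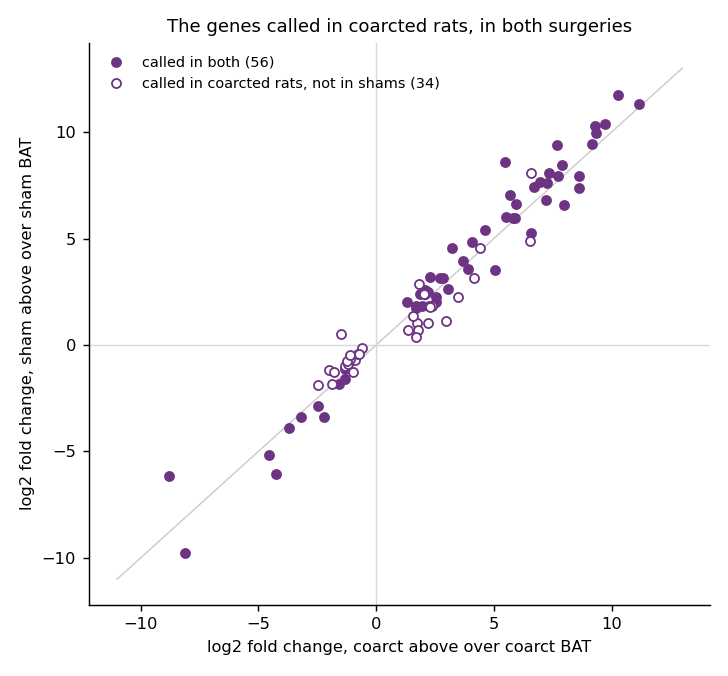
Log2 fold changes of the genes called in coarcted rats (coarct above over coarct BAT, x axis) against their values in shams (sham above over sham BAT, y axis), for the 90 genes tested in both. Filled points are the 56 genes called in both surgeries and open points the 34 not called in shams.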

How the data were processed

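RNA of 31 libraries was sequenced in bulk, and 11 of them form the comparison, with 9 sham libraries beside it. The authors deposited whole-number counts per gene for 32883 Ensembl entries and FPKM values, which equal count over gene length and library total. The submitters' processing notes name STAR 2.5, HTSeq 0.6.1 and DESeq2 1.24.0, and no source used here states the genome build, annotation or strand setting. Per the labels' protocols, only RNA with an integrity number of at least 7.5 was sequenced. In 25 entries the gene name differed between the deposited tables because of conversion to dates, and names were read from the FPKM table.

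The test on counts was that of edgeR 4.0.16 under R 4.3.3 (filterByExpr, TMM scaling, quasi-likelihood test, Benjamini-Hochberg adjustment over all tested genes, threshold 0.05), with tissue as the only term. The coarcted and the sham comparison were fitted apart, and their difference in 20 libraries as an interaction. DESeq2 1.42.0 and limma 3.58.1 on log2(FPKM + 1) were alternatives, beside no filter, a minimum log2 fold change of 1, each library left out, a replicate block, more libraries in the fit and the mitochondrial split. That split was set at 451 CPM. Totals of 16232414 to 23874564 counts set the precision, and intervals for read ratios (95%) and the floor of 3 reads cover counting error only.

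The members and gene lists were chosen with earlier results of these data known. Genes were named by rule: among called genes with mean log2 CPM of at least 1, the 8 largest changes and the 8 lowest p in each direction, and, with no minimum level, up to 3 called members per list and direction, with the 2 lowest p where fewer than 2 were called, plus 11 fixed genes (Ucp1, Adipoq, Lep, Agt, Zic1, Pdgfra, Col1a1, Wt1, Myl7, Adrb3, Cidea). En1, Foxc1, Upk1b, Krt19, Gpm6a, Ryr2, Myl4, Ankrd1, Gpc3, Aldh1a3, C3, Hamp, Lbp, Fgg, Slit2, Mylk3, Mmp27, Cldn15, Slpi, Hoxd3, Sln, Csrp3, Myl3, Dsp, Ndn, Tnni3k and Tbx20 fall outside it and were chosen after their values were seen. Promoter sequences are from RefSeq (GRCr8), where 64 of 94 genes looked up had one. Some genes are not reported here.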

Additional observations from a re-analysis of the deposited data

Results flagged for a closer look

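A library stood far from the rest of its group in 34 of 204 groups of values by Dixon's test. Chance gives about 1 in 20 only for independent groups of normally distributed values. Neither can be assumed here, since values were CPM, some resting on few reads, and many flags were heart muscle genes of the same library. The number of flags therefore cannot be compared with a chance rate. Of the 34, 21 were in coarct above, 16 of them replicate 19, and 13 were in coarct BAT.

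Replicate 19 of coarct above was highest for heart muscle genes. The cardiac list summed to 3411 CPM there, against 4.15 to 889 CPM in the other 5 coarct above libraries. Its values were 1255 CPM for Myh6 (others up to 327), 536 CPM for Actc1 (up to 127), 265 CPM for Ankrd1 (up to 91.0), 226 CPM for Tnnt2 (up to 64.6) and 224 CPM for Myl4 (up to 53.6). Mybpc3 had 124 CPM (up to 40.9), Ryr2 90.0 CPM (up to 24.5), Csrp3 62.2 CPM (up to 21.3) and Dsp, a desmosome protein, 48.3 CPM (up to 19.7). Lower in level were Mylk3 at 17.4 CPM (up to 6.21), Corin, the natriuretic peptide protease, at 10.8 CPM (up to 3.07), Tbx20, a heart T-box factor, at 8.15 CPM (up to 1.94), Tnni3k, a cardiac kinase, at 6.72 CPM (up to 2.08) and Gata4 at 5.96 CPM (up to 2.46). Igfbp3 was also highest in that library, at 106 CPM against 47.8 to 68 CPM.

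The other coarct above values that stood apart were Upk1b at 10.6 CPM (others 2.05 to 4.84) and Fgg at 1.81 CPM (0.458 to 0.935) in replicate 25, Zic1 at 0.0994 CPM (others 0) and a skeletal muscle sum of 2408 CPM (221 to 310) in replicate 29, and Ndn, necdin, at 25.6 CPM (12.9 to 16.7) in replicate 30.

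In coarct BAT replicate 19 the skeletal muscle sum was 7347 CPM (others 103 to 871), Csrp3 3.60 CPM (up to 0.81), Actc1 0.739 CPM (up to 0.193) and Upk1b 0.277 CPM (up to 0.0616). In coarct BAT replicate 30 Dkk3 was at 3.19 CPM (1.79 to 1.98), Foxc1 at 2.38 CPM (1.79 to 1.94) and Hamp at 0.101 CPM (others 0). Replicate 29 of coarct BAT was lowest for Ebf2 at 56.4 CPM (123 to 141) and Hoxd3 at 0.395 CPM (1.25 to 1.48), and the only library with Tnnt2 reads, at 0.0987 CPM. Replicate 27 had Dsp at 4.44 CPM (0.543 to 1.5) and the only Wt1 read, at 0.0616 CPM, and replicate 23 had C3 at 7.0 CPM (2.12 to 2.73).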

How the results depend on the processing

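The counts of called genes moved with the tool, and the direction of the 92 called genes did not in any setting that could estimate them. Coarct above against coarct BAT gave 65 higher and 27 lower genes with edgeR, against 211 and 119 with DESeq2's Wald test, which kept all 92. limma on log2(FPKM + 1) gave 19 and 13, with a pseudocount of 0.1 24 and 14, and without a filter 17 and 11. These 3 had 59.4%, 63.2% and 60.7% of their calls higher, and the median log2 fold change of all genes was 0.12, 0.16 and 0.04, against -0.03 with edgeR. A minimum log2 fold change of 1 left 31 and 6. Without a filter on low counts there were 91 and 27. With coarct below libraries in the fit there were 131 and 52, and with all 31 libraries 133 and 53. Leaving out 1 library gave 33 to 139 higher and 16 to 49 lower. Within the high side of the mitochondrial split there were 7 and 4, and within the low side 18 and 7, with fewer libraries in each. In shams DESeq2 gave 187 and 98, limma 33 and 8, 37 and 8 or 27 and 10, a minimum log2 fold change of 1 40 and 11, and no filter 53 lower. Leaving out 1 sham library gave 42 to 106 higher and 17 to 40 lower. The difference between surgeries gave 0 to 1 genes, with 1 by DESeq2. The cause of these shifts was not tested.

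The title numbers 19, 23, 27, 29 and 30 occur in both tissues, but the deviations of same-numbered libraries correlated at -0.067 to 0.372 in coarcted rats and -0.141 to 0.222 in shams, so the numbers were not taken as pairs, although 4 of the 5 in coarcted rats and 1 of the 4 in shams were over 0.1. Coarct above 19, 23 and 27 each correlated best with the coarct BAT library of their own number (0.372, 0.364 and 0.302). Coarct above 29 and 30 did not (-0.067 and 0.151 with their own). In shams only sham above 22 did (0.222). A pairing of same-numbered libraries therefore remains possible. A replicate block gave 52 higher and 20 lower genes (55 of the 92 kept), 32 and 17 with the 5 same-number pairs alone (chosen after seeing the data, as were counts per list with a library left out), and 43 and 9 in shams. Among the genes named in the text, Aldh1a3, Slit2, Gpm6a, Mmp27, Myh6, Ankrd1, Dkk3, Wnt2b, Pi16, Prox1, Reln, Pax9, Tbx15, Sox10, Hamp and Fgg were not called with the block.

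Uncalled genes near 0 changed sign. Ucp1 was -0.051 without coarct BAT 30 (range -0.051 to 0.31) and -0.0070 on the high side of the split. Agt was 0.21 with all 3 limma settings, -0.43 to 0.47 with 1 library left out (0.09 without coarct above 27), 0.026 with the block, 0.028 in the pairs alone, 0.017 with a term for the split and 1.45 on its high side. On its low side Agt was -1.61, Acaca was -0.24 and Lep 0.31.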

Other observations

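C3, Lbp, Fgg and Hamp, which the liver makes in large amounts, were among the genes higher in coarct above. These 4 were picked out after their values were seen and stand for no list. C3, the central complement protein, averaged 17.9 ± 12.5 CPM in coarct above (SD, n = 6) and 3.38 ± 2.04 CPM in coarct BAT (SD, n = 5; log2 fold change 2.22, edgeR adjusted p = 0.0413), and with 1 library left out it was called in 3 of 11 fits. Lbp, which carries bacterial lipopolysaccharide, averaged 6.59 ± 2.86 CPM in coarct above and 1.73 ± 0.542 CPM in coarct BAT (1.70, edgeR adjusted p = 0.0148), and it lost its call without coarct BAT 23 or 30. Fgg, the fibrinogen gamma chain, had 108 reads in coarct above and 3 in coarct BAT (ratio 28.4, 9.45 to 140 by counting error). Hamp, the iron hormone hepcidin, had 0, 4.2 and 12.2 CPM in coarct above (lowest, median, highest), with no read in replicate 30, and 2 reads in coarct BAT. With 1 library left out, Hamp was called in 2 of the 6 fits in which it could be tested. limma on log2(FPKM + 1) did not call C3, Lbp or Hamp.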
